A study of Rattus norvegicus with 14 samples.

Results

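The genes described here are 10 components of the inflammasome in rat hippocampal cultures, chosen by symbol: the sensors Nlrc4, Nlrp3 and Aim2, the adaptor Pycard, the caspases Casp1 and Casp4, the pore former Gsdmd, the cytokines Il1b and Il18, and Txnip. All 10 were found among the 31791 genes of the astrocyte table. The neuron table of 18239 genes held 8 of them and does not list Casp1 or Il1b. Of the astrocyte genes listed, 9853 were at 0 in every library. Every gene listed for neurons was above 0 in at least 4 libraries, so low genes may be missing from that list. Nlrc4 and Pycard are genes that the study itself picked out from these same astrocyte libraries, so their direction here is not independent evidence.

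An inflammasome is a protein platform of innate immunity. A sensor that meets microbial or damage signals gathers the adaptor ASC, the product of Pycard, and through it the protease caspase-1. Active caspase-1 cleaves the precursors of interleukin-1β and interleukin-18 and opens gasdermin D, whose fragments form pores in the plasma membrane. In brain, microglia are the best known source of these proteins, and astrocytes can make some of them.

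Astrocyte cultures were grown from hippocampi of Sprague Dawley rats at embryonic day 18, from mixed glia shaken overnight near confluence, and kept for 24 h in aging-model (AM) medium, here DMEM/F-12 with 10% charcoal-stripped serum. They then received vehicle (AM-Veh) or 100 nM allopregnanolone (AM-Allo, a neurosteroid that modulates GABA-A receptors) for 24 h, with 3 libraries in each group. Neurons of the same embryonic age were in AM medium with 0.2% B27 supplement for 4 h on day 10, then received vehicle (0.001% ethanol) or 100 nM Allo for 16 h, with 4 libraries in each group. All groups were thus in AM medium, and cultures outside AM medium are not analysed here. Nothing in the labels says that libraries of a group came from separate cultures, so p-values measure only the spread between these libraries, which may be technical.

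Values are counts per gene that the authors normalized within each cell type. By the spacing of low values within a library, 1 read was worth 0.842 to 1.077 normalized counts in astrocytes and 0.8765 to 1.135 in neurons, and libraries held an estimated 22100000 to 28500000 and 19700000 to 25100000 reads on genes. The low values lay within 0.15 reads of a whole number in 60.4% to 91.3% of cases in astrocytes, so the read numbers given below are estimates. The defining markers of the labelled cells were present, with summed astrocyte markers at 239668 to 253760 normalized counts per astrocyte library and summed neuronal markers at 44175 to 52358 per neuron library, led by Map2 and Tubb3. Neuron libraries also held 198968 to 258956 normalized counts of astrocyte markers, led by Gfap and Slc1a3, and 38365 to 45308 of oligodendrocyte lineage markers, led by Olig1 and Olig2. Astrocyte libraries held 33184 to 40184 of mesenchymal and endothelial markers, led by Col1a1 and Col3a1, 5465 to 6232 of neuronal markers, led by Map2 and Gad1, and 3917 to 4359 of oligodendrocyte lineage markers, Olig1 among them. In such bulk samples, fewer cells of a type and less RNA per cell cannot be told apart.

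RefSeq promoters of assembly GRCr8 were matched by symbol for 6 of the 10 members: Pycard, Nlrp3, Casp1, Il1b, Il18 and Aim2. The 250 bases upstream of the start are shown for the adaptor, which differed between AM-Allo and AM-Veh at an unadjusted p, beside a sensor and the caspase it recruits, which did not. Capitals mark matches on either strand to GAGGAA, a core bound by the myeloid factor PU.1, or TTCNNNGAA, the element bound by STAT factors. The Pycard stretch is at chr1:192033420-192033669 on the minus strand, that of Nlrp3 at chr10:44827848-44828097 and that of Casp1 at chr8:10872580-10872829, both on the plus strand.
Pycard: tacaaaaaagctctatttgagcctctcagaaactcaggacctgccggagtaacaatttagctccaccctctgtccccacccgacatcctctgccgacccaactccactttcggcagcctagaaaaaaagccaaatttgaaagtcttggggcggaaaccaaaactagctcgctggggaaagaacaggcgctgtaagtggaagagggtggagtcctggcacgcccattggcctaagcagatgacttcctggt
Nlrp3: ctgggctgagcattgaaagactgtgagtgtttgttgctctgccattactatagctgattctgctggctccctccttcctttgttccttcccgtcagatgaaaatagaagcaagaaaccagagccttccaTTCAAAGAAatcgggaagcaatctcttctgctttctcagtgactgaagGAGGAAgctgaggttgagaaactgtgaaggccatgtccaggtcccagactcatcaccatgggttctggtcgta
Casp1: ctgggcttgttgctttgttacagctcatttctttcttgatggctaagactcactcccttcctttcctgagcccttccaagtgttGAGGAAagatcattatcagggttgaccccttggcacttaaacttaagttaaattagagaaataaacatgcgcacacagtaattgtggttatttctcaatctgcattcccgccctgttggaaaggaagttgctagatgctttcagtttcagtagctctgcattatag
Nlrp3 held 1 match to each motif, and Casp1 held 1 GAGGAA. Aim2 also held 1 GAGGAA, and Pycard, Il1b and Il18 held neither motif. Of all 33469 promoters of this length, 23.3% held GAGGAA and 7.67% held TTCNNNGAA. The E-box CACGTG, in 5.59% of promoters, was in none of the 6, and TATAAA, in 12.9%, was in that of Il1b alone. The motifs do not overlap one another in these stretches, and a match is a description of the letters only. The Pycard stretch had 52% G and C and 8 CpG, against medians of 51.2% and 5 over all promoters.

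The comparison of AM-Allo with AM-Veh in astrocytes addresses whether the neurosteroid alters inflammatory gene expression. Nlrc4 and Pycard were lower in AM-Allo at an unadjusted p under 0.05, each with a mean at 0.611 of its AM-Veh mean, and the other 7 members tested did not pass that threshold. Of the 10 members, 9 had a mean of at least 10 normalized counts and were tested, 3 with a higher and 6 with a lower mean log2 value in AM-Allo, with a median log2 fold change of −0.063 against 0.0014 over all genes tested. The 2 of 9 members past an unadjusted p of 0.05 stand beside 7.01% of all 15380 genes tested, and 3.29% were past it in the lower direction. With upper-quartile scaling, 39.0% of the genes past that threshold were higher in AM-Allo, against 53.1% without it, and both members stayed lower. Once p-values were adjusted by Benjamini-Hochberg across all genes, no member passed in limma, where 0.0065% of all genes did, and the smallest adjusted p among members was 0.570.

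Nlrc4, the sensor that responds to bacterial flagellin and secretion systems through NAIP proteins, had 42.6, 48.0 and 35.0 normalized counts in AM-Veh replicates 1 to 3. In AM-Allo it had 26.8, 22.1 and 27.9. The highest AM-Allo value lay under the lowest AM-Veh value, which made Nlrc4 the only member of those tested whose groups did not overlap, a separation seen in 12.5% of all genes tested. The means were 41.8 ± 6.54 and 25.6 ± 3.09 (SD, n = 3 each). The log2 fold change was −0.68 with a standard error of 0.240 and a 95% confidence interval of −1.20 to −0.17, and limma gave an unadjusted p of 0.0135 and a Benjamini-Hochberg adjusted p of 0.570. The two-sided exact permutation test gave 0.1, the smallest value that 3 libraries against 3 allow. These levels stood on about 22.4 to 45.4 reads per library, and counting error alone at their mean gives a coefficient of variation of 17.2%, against 15.6% observed in AM-Veh and 12.1% in AM-Allo. Without AM-Veh replicate 2, the library with the highest Nlrc4, the log2 fold change was −0.58 and the unadjusted limma p 0.0614.

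Pycard encodes ASC, the adaptor that joins sensors to caspase-1. It had 48.0, 63.9 and 33.9 normalized counts in AM-Veh and 21.5, 36.0 and 31.6 in AM-Allo. The groups overlapped, since AM-Allo replicate 2 lay above AM-Veh replicate 3. The log2 fold change was −0.68 with a standard error of 0.281 and a confidence interval of −1.29 to −0.072, at an unadjusted limma p of 0.0310 and an adjusted p of 0.684, and the exact permutation test gave 0.2. About 19.9 to 60.5 reads per library lay behind these values, and their variation in AM-Veh, 30.9%, exceeded what counting error gives at this level. The unadjusted limma p was 0.0706 without AM-Veh replicate 1, 0.158 without AM-Veh replicate 2, 0.126 without AM-Allo replicate 1 and 0.0588 with a variance prior that ignores the mean level.

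Nlrp3, the sensor of ion fluxes and membrane damage, had 52.8, 67.8 and 37.9 normalized counts in AM-Veh and 46.2, 55.9 and 53.9 in AM-Allo. The AM-Allo values all lay within the AM-Veh range. Its log2 fold change was 0.012, with a confidence interval of −0.48 to 0.51 that spans 0.716-fold to 1.42-fold. Aim2, the sensor of cytosolic DNA, was near 0 in astrocytes, at 0, 2.22 and 0 normalized counts in AM-Veh and 2.02, 0 and 0.316 in AM-Allo. That is at most about 2.10 reads in a library, so no fold change is given.

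Casp1, the protease that matures both cytokines, had 84.3, 83.5 and 67.7 normalized counts in AM-Veh and 73.6, 81.1 and 91.1 in AM-Allo. The groups overlapped and the log2 fold change was 0.062 (confidence interval −0.30 to 0.42). Casp4, the rodent caspase-11 that senses intracellular lipopolysaccharide, had 870, 793 and 772 against 788, 789 and 925. Its interval, −0.12 to 0.19 around 0.037, was narrower, on an estimated 732 to 1098 reads. AM-Allo replicate 3 was the highest library for both caspases.

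Gsdmd, the pore-forming substrate of these caspases, was nearly level at 1134, 1146 and 1227 normalized counts in AM-Veh and 1134, 1236 and 1136 in AM-Allo. Its interval of −0.11 to 0.11 (0.924-fold to 1.08-fold) was the narrowest of the members. Il1b, the precursor of interleukin-1β, had 150, 166 and 139 against 139, 126 and 148, a log2 fold change of −0.14 with an interval of −0.41 to 0.13. Il18, the other precursor, had 59.5, 74.6 and 63.3 against 69.5, 58.5 and 60.6, a log2 fold change of −0.063 with an interval of −0.45 to 0.32. The groups overlapped for all of these.

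Txnip binds thioredoxin and can associate with NLRP3 under oxidative stress. It had 11614, 11490 and 10821 normalized counts in AM-Veh and 10317, 12060 and 9922 in AM-Allo. AM-Allo replicate 2 was the highest of all 6 libraries and the other AM-Allo libraries were the lowest. The log2 fold change was −0.075 with an interval of −0.20 to 0.052, at an unadjusted limma p of 0.224 and an adjusted p of 0.841. Without AM-Allo replicate 2 it was −0.16 at an unadjusted limma p of 0.00167. With about 9579 to 12231 reads per library, counting error was 0.950%, while the observed coefficient of variation was 10.6% in AM-Allo.

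**Figure D1:**
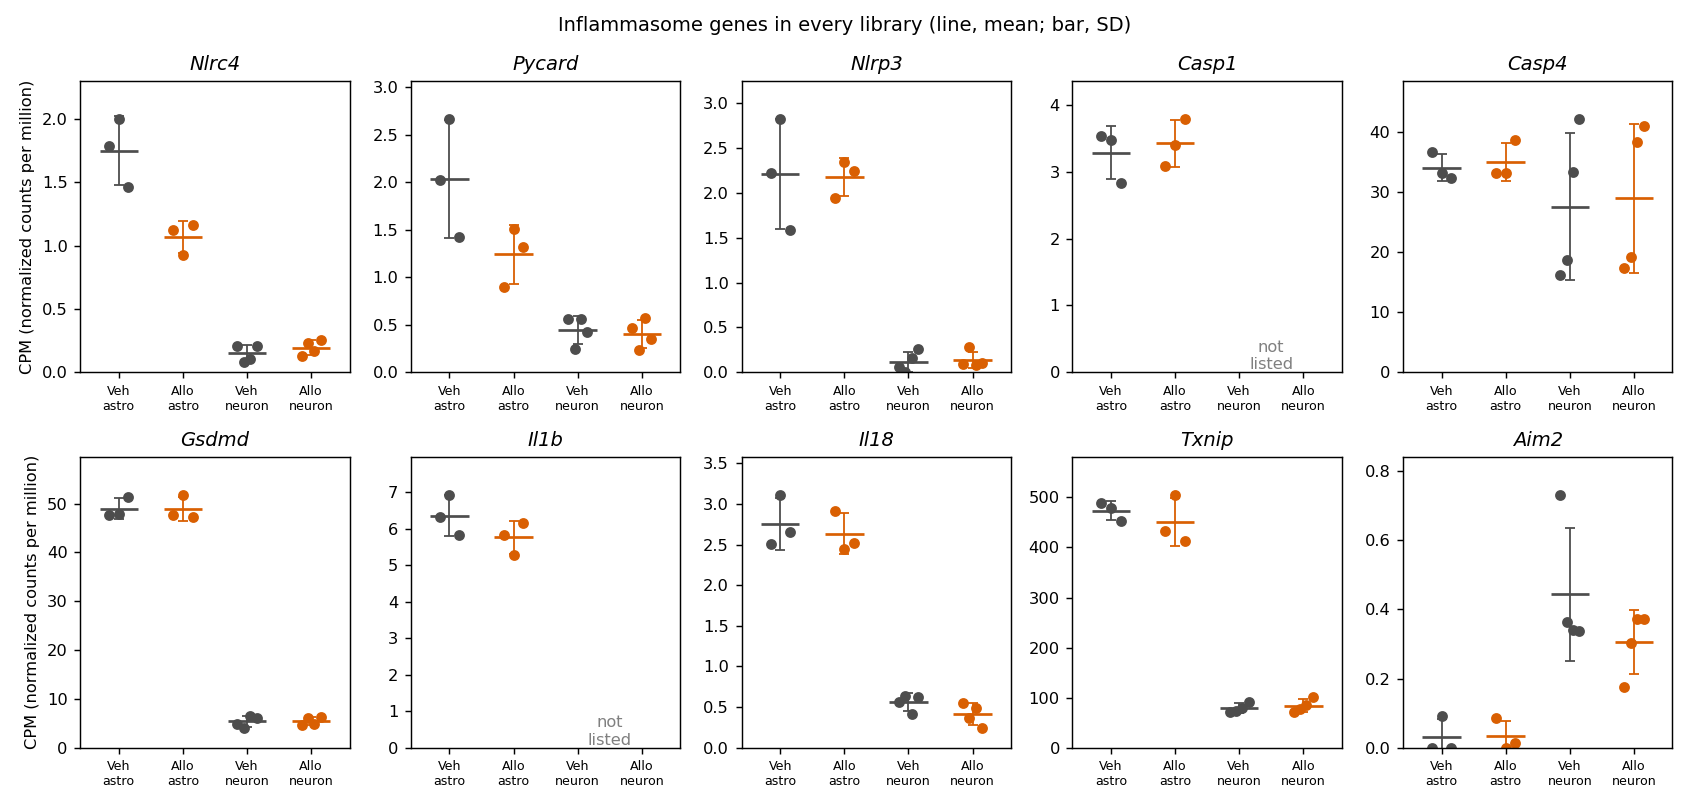
Level of each member in every library, in CPM (normalized counts per 1000000 of the library's total) (y axes from 0), for AM-Veh (grey) and AM-Allo (orange) astrocytes and neurons, with points for libraries, lines for means and bars for SD. Nlrc4 is the member tested in astrocytes whose AM-Allo and AM-Veh points do not overlap, at means of 1.07 and 1.75.

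**Figure D2:**
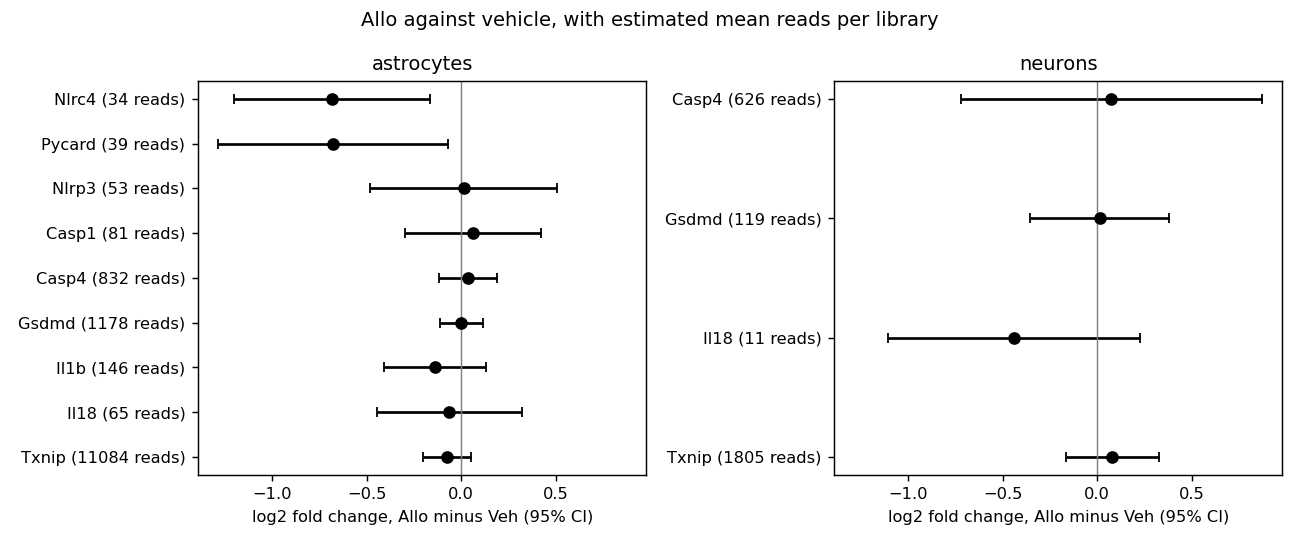
Log2 fold change of AM-Allo against AM-Veh (points) with 95% confidence intervals (bars) for the members tested, 9 in astrocytes and 4 in neurons, with the estimated mean reads per library beside each name. The intervals of Nlrc4 and Pycard in astrocytes lie below 0, and those of the other members include 0.

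The standard errors show how small a difference could be seen, and over all genes they were smaller at higher levels. The standard errors of Nlrc4 and Pycard, 0.240 and 0.281, sat below the median of 0.315 over the 2461 astrocyte genes with means of 10 to 50. The median was 0.117 for the 5289 genes with means of 50 to 500, among which are Nlrp3 (standard error 0.229), Casp1 (0.167), Il18 (0.178) and Il1b (0.126). Over the 7630 genes above 500 the median was 0.0508 and the upper quartile 0.0612, with Casp4 above both at 0.0714 and Gsdmd (0.0530) and Txnip (0.0591) between them. A change of the size seen in Nlrc4 lies outside the intervals of the other 7 members tested, Nlrp3 included, while changes up to about 1.42-fold in Nlrp3 and 1.34-fold in Casp1 lie within theirs.

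**Figure D3:**
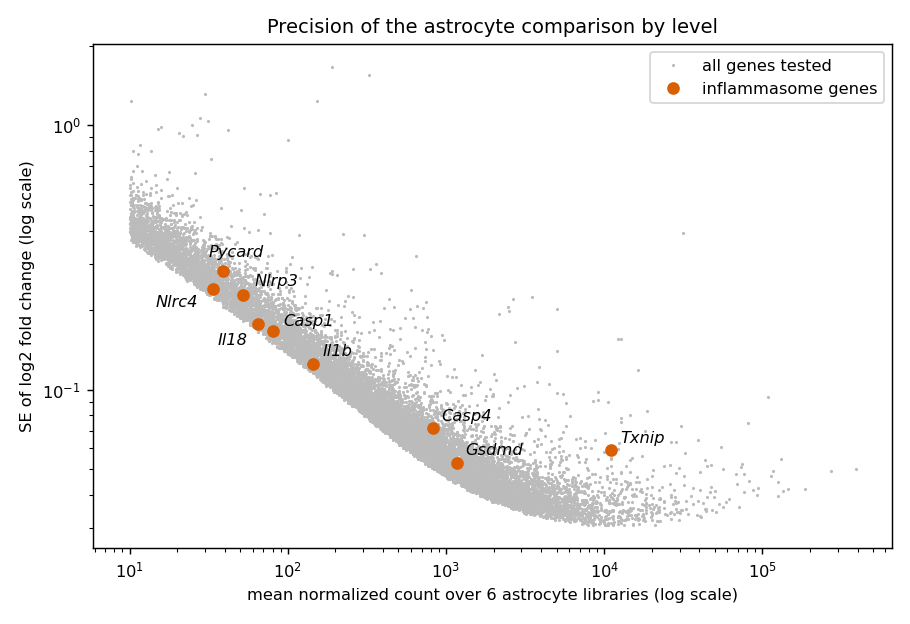
Standard error of the log2 fold change (y axis, log scale) against the mean normalized count over 6 libraries (x axis, log scale) for all genes tested in astrocytes (grey) and for the 9 members tested (orange). Standard errors shrink with level over all genes. Among the members they run from 0.281 for Pycard to 0.0530 for Gsdmd, not strictly in order of level. Txnip lies above most genes of its level.

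Microglia markers were present in the astrocyte libraries, although the culture protocol discards the cells that overnight shaking loosens, microglia among them. All 15 markers used were listed and tested, with 7 higher and 8 lower in AM-Allo. Cx3cr1, the fractalkine receptor, was the 1 marker past an unadjusted p of 0.05, lower in AM-Allo at 51.3 normalized counts against 76.4, without overlap (limma log2 fold change −0.58, adjusted p 0.552). The 15 markers, a set trimmed after levels were seen, summed to 2217 to 2787 normalized counts in AM-Veh and 2288 to 2503 in AM-Allo. These ranges overlapped. Markers of other cells were compared as well. Of the 9 astrocyte markers 8 were lower in AM-Allo. The glutamate transporter Slc1a2 (140 against 180 normalized counts, unadjusted limma p 0.0211) and S100b (4490 against 4775, 0.0371) were lower without overlap. These 2 of 9 markers stand beside 7.01% of all genes tested past an unadjusted p of 0.05 and 12.5% without overlap. The other lower astrocyte markers ranged from 0.952 (Sox9) to 0.995 (Aldoc) of their AM-Veh means. S100b is also a gene that the study itself picked out from these astrocyte libraries, so its direction is not independent evidence. Of 5 neuronal markers tested, 2 were higher and 3 lower. Map2 was lower with overlap, at 3551 against 3873 (unadjusted limma p 0.0299), the 1 neuronal marker past 0.05. Of 6 oligodendrocyte lineage markers 5 were higher, as were 3 of 4 mesenchymal and endothelial markers, none past an unadjusted p of 0.05. The part of these markers in the differences of Nlrc4 and Pycard was not tested.

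AM-Veh replicate 2 had the highest sum of microglia markers. It also had the highest value of 6 of the 10 members, namely Nlrc4, Pycard, Nlrp3, Il1b, Il18 and Aim2. Aim2 there stood on about 2.10 reads, and the share of all genes highest in that library is not given here. Nlrc4 amounted to 1.92%, 1.72% and 1.56% of the marker sum in AM-Veh replicates 1 to 3 and to 1.16%, 0.964% and 1.11% in AM-Allo. These shares did not overlap between the groups, but neither did the Nlrc4 counts they were drawn from, so they add no separate evidence. Pycard amounted to 2.17%, 2.29% and 1.51% in AM-Veh and 0.931%, 1.57% and 1.26% in AM-Allo, and the groups overlapped. The part of microglia in either difference was not tested.

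**Figure D4:**
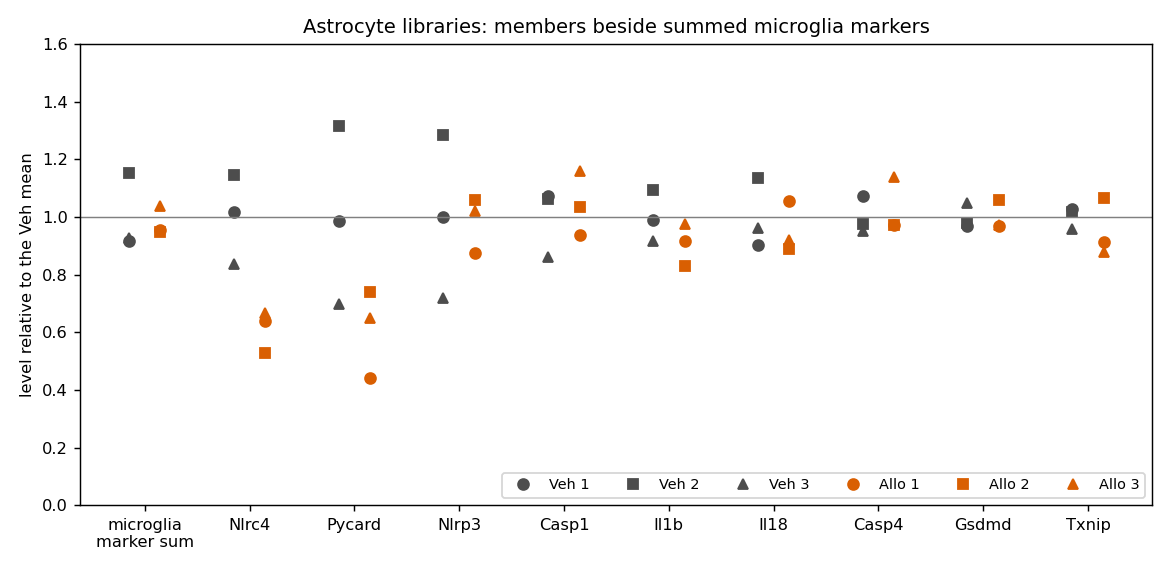
Level in each of the 6 astrocyte libraries relative to the AM-Veh mean (y axis, linear, from 0) for the sum of 15 microglia markers and for the 9 members tested, with grey for AM-Veh, orange for AM-Allo and symbols for replicates. The marker sums of the groups overlap, at 2217 to 2787 and 2288 to 2503 normalized counts, while Nlrc4 separates them.

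Around the members, 63 other genes of inflammasome biology were followed in 5 lists. In astrocytes 57 were listed and 50 tested, 26 higher and 24 lower, of which 2 passed an unadjusted p of 0.05 upward and 1 downward, beside 7.01% of all genes tested in either direction. With a variance prior that ignores the mean level, 7 passed, 2 upward (Ninj1 and Il1r1) and 5 downward (Tlr4, Syk, Il18bp, P2rx7 and Nod2), an alternative added after the data were seen. With that prior, 994 of all 15380 genes tested passed. No gene passed after adjustment, the smallest adjusted p in limma being 0.457. Ninj1, which ruptures the plasma membrane after pore formation, was higher in AM-Allo at 789 ± 25.1 normalized counts against 685 ± 20.1 (SD, n = 3 each), a log2 fold change of 0.20 without overlap and an adjusted limma p of 0.457. Il1r1, the signalling receptor of interleukin-1, was higher at 3010 ± 173 against 2693 ± 75.9, a log2 fold change of 0.16 without overlap and an adjusted limma p of 0.473. Txn1, the thioredoxin that Txnip binds, was lower at 2135 ± 216 against 2341 ± 117, with overlap and an adjusted limma p of 0.709.

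The groups did not overlap for 5 of the 50, a share to be read beside the 12.5% of all genes. Beside Ninj1 and Il1r1 these were the endotoxin receptor Tlr4, the kinase Syk and the interleukin-18 inhibitor Il18bp, all lower in AM-Allo with unadjusted limma p of 0.0625, 0.258 and 0.151, named after their values were seen.

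By list, none of 5 sensors tested and none of 17 priming and triggering genes passed an unadjusted p of 0.05. The others had 1 of 7 proteases and pore formers, 1 of 11 interleukin-1 family genes and 1 of 10 genes of the thioredoxin system. These 3 of 50 genes stand beside 7.01% of all genes tested. Among the most abundant of each list, the sensor Nlrx1 had 924 normalized counts in AM-Allo against 887 and Nod1 566 against 566. The alarmin Hmgb1 had 4510 against 4515 and the lysosomal protease Ctsb 26378 against 26726. The interleukin-1 family cytokine Il33 had 2212 against 2328, the peroxidase Prdx1 7411 against 7346 and the glucose transporter Slc2a1 5912 against 6063. None of these 7 passed the test.

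AM-Allo replicate 3 stood apart for the guanylate-binding proteins, which act on intracellular pathogens upstream of caspase-11 and Aim2. Chosen after their values were seen, Gbp2 had 4840 normalized counts there against 2010 to 2344 in the other astrocyte libraries, and Gbp5 had 1225 against 669 to 805. Casp1, Casp4 and Casp8 were highest in the same library. Without it, the log2 fold changes of Nlrc4 and Pycard kept their direction and an unadjusted limma p under 0.05.

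Neurons were compared in the same way after 16 h of Allo, and no member passed the test. Of the 8 members listed, Casp4, Gsdmd, Il18 and Txnip passed the minimum mean, 3 with a higher and 1 with a lower mean log2 value, with a median log2 fold change of 0.043 against −0.0015 over all genes tested. None passed an unadjusted p of 0.05, where 5.69% of all 15314 genes tested did, and none passed after adjustment, where 0.0261% did. None was without overlap between the groups, which held for 3.95% of genes. The smallest adjusted p in limma among them was 0.954. With libraries paired by replicate number, the genes past an unadjusted p of 0.05 went from 872 to 1634, and those past an adjusted p from 4 to 93.

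Casp4 in neurons had 356, 408, 743 and 940 normalized counts in AM-Veh replicates 1-1, 1-2, 2-1 and 2-2 and 381, 422, 849 and 917 in AM-Allo. The values split by the first part of the replicate number and not by treatment. The log2 fold change of AM-Allo was 0.075 with an interval of −0.72 to 0.87, and blocking on that first part narrowed the interval to −0.079 to 0.23. Gsdmd had 107, 90.7, 144 and 138 against 102, 132, 106 and 138, a log2 fold change of 0.012 with an interval of −0.36 to 0.38.

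Il18 in neurons had 12.5, 14.1, 9.16 and 14.1 normalized counts in AM-Veh and 12.1, 7.99, 10.9 and 5.56 in AM-Allo. These overlapping values stood on about 4.95 to 16.1 reads, and the log2 fold change of −0.44 had an interval of −1.10 to 0.22. Txnip had 1554, 1634, 1754 and 2060 against 1584, 1702, 1876 and 2260. Each AM-Allo library exceeded the AM-Veh library of the same number, though the groups overlapped. The log2 fold change of Txnip was 0.079 at an unadjusted limma p of 0.493. Pairing by the whole number gave an unadjusted limma p of 0.0340 and a Benjamini-Hochberg adjusted limma p of 0.417. Blocking on the first part of the number alone gave an unadjusted limma p of 0.192.

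The other 4 listed members were too low for the test. Pycard ranged from 5.02 to 12.7 normalized counts over the 8 neuron libraries, Nlrc4 from 1.74 to 5.63, Nlrp3 from 0 to 6.05 and Aim2 from 3.85 to 16.1. AM-Allo and AM-Veh overlapped for each of them. For Nlrc4 this was about 1.98 to 5.01 reads per library, and the gene was not tested in neurons. Whether the Allo difference itself varies between the cell types was not tested.

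The split of Casp4 was followed up after the values had been seen, with treatment kept in the fit. Libraries numbered 2-1 and 2-2 (set 2) had 862 ± 88.1 normalized counts of Casp4 against 392 ± 29.4 in set 1 (SD, n = 4 each), a log2 difference of 1.13, or 2.19-fold, with a standard error of 0.0721 and an adjusted limma p of 4.18e-08. Txnip was also higher in set 2, by 0.29 at an adjusted limma p of 0.00252, which was 0.0659 with a variance prior that ignores the mean level. Neither gene overlapped between the sets, and 17.2% of all genes tested passed an adjusted p of 0.05 in this comparison. Gsdmd (log2 difference 0.29) and Il18 (−0.25) did not pass, with adjusted limma p of 0.174 and 0.666. The labels do not say what the first part of the number stands for.

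Markers of other cells moved with these sets. Summed astrocyte markers were 198968 to 210910 normalized counts in set 1 and 236144 to 258956 in set 2. The microglia markers summed to 131 to 155 and 184 to 206. Cd68 alone had a mean of 102 over the neuron libraries, and 6 of the markers had means under 10. That sum thus rested largely on Cd68. Oligodendrocyte lineage markers were lower in set 2 without overlap, at 42276 to 45308 in set 1 and 38365 to 39078 in set 2, as were mesenchymal and endothelial markers, at 864 to 1866 and 604 to 729. Neuronal markers overlapped between the sets, at 45274 to 47940 and 44175 to 52358. The part of these markers in the difference of Casp4 was not tested.

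**Figure D5:**
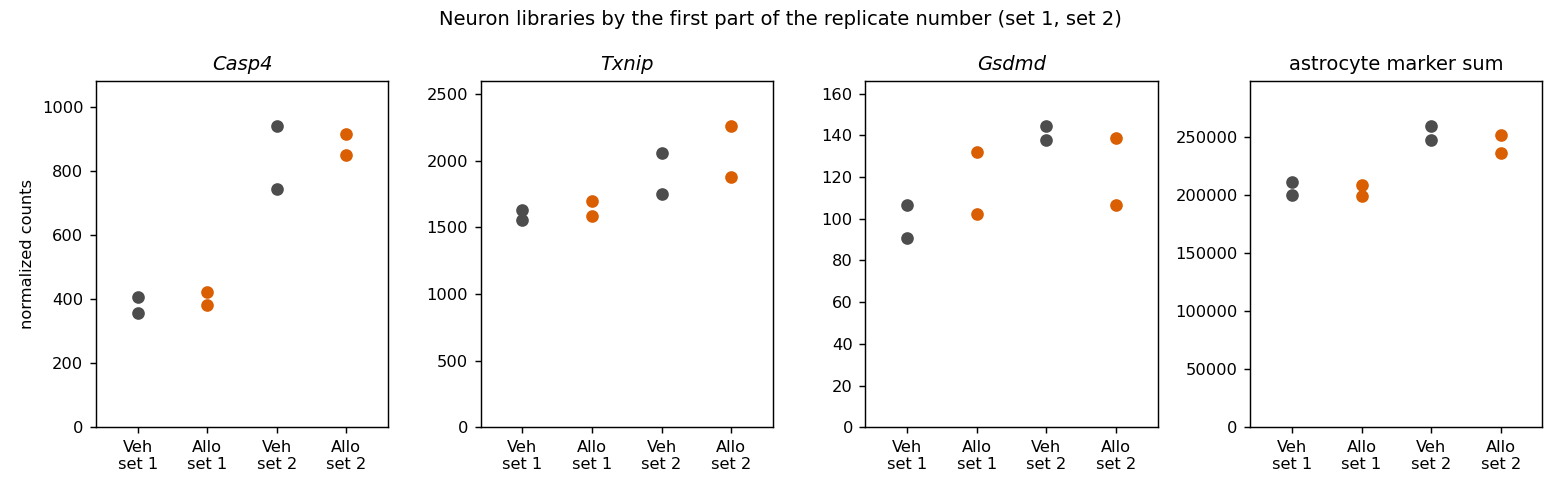
Normalized counts (y axes from 0) of Casp4, Txnip and Gsdmd and of the summed astrocyte markers in the 8 neuron libraries, by treatment (grey, AM-Veh; orange, AM-Allo) and by the first part of the replicate number. Casp4 lies at 356 to 422 in set 1 and 743 to 940 in set 2 whatever the treatment.

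Of the 63 surrounding genes, 50 were listed in neurons and 44 tested, 14 higher and 30 lower in AM-Allo. None passed an unadjusted p of 0.05 in limma. Of those tested, 1 did not overlap between the groups (Txnrd2, lower), beside 3.95% of all genes tested. Casp8, not tested at a mean of 9.01, was higher without overlap, at 11.9 normalized counts against 6.14. Both were named after their values were seen. With libraries paired by replicate number, Arrdc4, an arrestin-family paralog of Txnip, was higher at a log2 fold change of 0.12 (unadjusted limma p 0.0178). Syk was lower at −0.28 (0.0345), and the adjusted limma p were 0.342 and 0.418. These 2 of 44 genes stand beside 1634 of all 15314 genes past an unadjusted p of 0.05 in that paired fit. Ninj1 had 1052 ± 309 normalized counts in AM-Allo against 1043 ± 334 in AM-Veh and Il1r1 782 ± 34.5 against 769 ± 50.1 (SD, n = 4 each). Nod1, Nlrx1, Hmgb1, Ctsb, Il1rap, Prdx1 and Txnrd1, among the most abundant of their lists, also overlapped between the groups, with log2 fold changes between −0.061 for Il1rap and 0.080 for Nod1.

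Levels in vehicle cultures were set side by side in CPM, the normalized counts per 1000000 of a library's total in its own table, with no test, since the tables were normalized separately. Nlrc4 was at 1.75 in astrocytes and 0.149 in neurons, Pycard at 2.04 and 0.443, and Il18 at 2.76 and 0.562. Gsdmd was at 49.0 and 5.40 and Txnip at 474 and 79.0. Casp4 was the member closest between the tables by mean, at 34.0 and 27.5. Its neuron mean covers 2 separate levels, 16.2 and 18.6 in set 1 and 33.3 and 42.1 in set 2. Nlrp3 was at 2.21 and 0.115, and Aim2 at 0.0309 in astrocytes and 0.444 in neurons. The microglia markers were at 93.2 to 116 on this scale in AM-Veh astrocytes and 6.76 to 9.22 in AM-Veh neurons. Of the 15, 10 were listed in neurons, and Itgam, C1qa, C1qb, Trem2 and Tyrobp were not. In neurons, 6 of those listed had means under 10, and Cd68 had the highest, at 108 normalized counts in AM-Veh. Summed astrocyte markers were at 10035 to 10670 in AM-Veh astrocytes and 9076 to 11599 in AM-Veh neurons, where neuronal markers were at 1979 to 2180. These are thus levels of whole cultures, and the part of each cell type in them was not tested.

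The genes whose log2 values followed the members most closely were ranked as a description. Over the 6 astrocyte libraries, Nlrc4 was most like Nae1 (Pearson r 0.997), Morn2 (0.996) and Heca (0.992), and 140 of 15379 genes reached an r of at least 0.9. Pycard was most like a gene without a symbol (0.995), Bbs12 (0.991) and Atp6v1d (0.990), with 106 genes at that level. These points share depth and treatment, so the ranking says nothing of function or control. Over all 14 libraries, after the mean of each cell type was removed, Txnip was most like Mettl7a (0.952), Apoe (0.949) and Bhlhe41 (0.918). Of 14385 genes, 8 reached 0.9. The difference between the neuron sets was left in these values, and Txnip itself differed between the sets without overlap.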

How the data were processed

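The authors quantified paired-end RNA-seq reads with Salmon against Ensembl release 95, summed transcripts to genes with tximport and normalized them with DESeq2. The deposited values are a normalized count signal per gene. Further deposited tables hold variance-stabilized values on a scale near log2, used as an alternative. In neurons these have equal means in both sets of libraries for every gene, so the set difference had been removed before deposit. Columns in the tables that match no sample numbered 0.

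Whole reads could not be recovered, so no count model was run. Values were log2-transformed with a pseudocount of 1, and genes with a mean of at least 10 were tested with limma 3.58.1 (lmFit, eBayes with trend) in R 4.3.3 for each cell type alone, with Benjamini-Hochberg adjustment over all genes tested. Each member was further compared by an exact two-sided permutation test, computed over every split of its libraries with numpy 2.4.6. This test cannot go below 0.1 in astrocytes or 0.0286 in neurons. Fold changes on this scale understate changes of low genes. Reads were estimated from the step between values under 12, and the confidence level was 95%. Intervals and counting errors cover these libraries and counting only.

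All members were named. From the pathway lists, genes with an unadjusted p under 0.05 in either cell type and the 2 most abundant per list and cell type were named, with the 2 highest of each other marker list and the 3 genes most like Nlrc4, Pycard and Txnip. A few genes that the rule takes are not reported here. The members and lists were chosen with earlier results of these data known. The comparison of neuron sets and most alternatives for the pathway counts were added after the data were seen. Same-numbered neuron libraries deviated together over genes (correlations of 0.296, 0.229, 0.265 and 0.273). Libraries of the same set with different numbers did so nearly as much (0.185, 0.236, 0.211 and 0.196). Pairing by whole number was therefore kept as an alternative, which these values hardly separate from a block by set. Alternatives changed the pseudocount (0.5 and 5), the minimum mean (above 0 and 50), the scaling, the variance prior, the replicate block and the libraries.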

Additional observations from a re-analysis of the deposited data

Results flagged for a closer look

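Over 16 groups of 4 neuron libraries, 2 had a library far from the rest, and chance marks about 1 group in 20. For Nlrp3 this was AM-Allo replicate 1-2, at 6.05 normalized counts, and for Aim2 it was AM-Veh replicate 1-1, at 16.1. Both are levels of few reads (about 14.4 for Aim2).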

How the results depend on the processing

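Nlrc4 and Pycard kept their lower direction in AM-Allo astrocytes under every alternative in which they were tested. The 2 members past an unadjusted p of 0.05 became 1 with no variance trend and 0 at a minimum mean of 50, which drops both genes, and 0 to 3 when 1 library was left out (0 without AM-Veh replicate 2, 3 without AM-Allo replicate 2, where Txnip joined). Adjusted p over the alternatives ran from 0.492 to 0.958 for Nlrc4 and 0.601 to 0.978 for Pycard. The 1 astrocyte gene past an adjusted p of 0.05 became 0 at a minimum mean of 50 and with no trend, 4 with a robust prior, 17 with a replicate block and 1 to 72 with 1 library left out (72 without AM-Allo replicate 1). Astrocyte numbers did not pair the samples (correlations of 0.0241, −0.00698 and 0.0117), and the block changed no member's call there. The 3 astrocyte pathway genes became 7 with no trend and 2 to 6 with 1 library left out (6 without AM-Allo replicate 1). In neurons, the 872 genes at an unadjusted p became 2204 on variance-stabilized values, from which the set difference had been removed, 1684 with a replicate block by the first number and 1634 by the whole number. The 4 at an adjusted p became 158, 104 and 93 in that order, 0 with no trend and 0 to 4 with 1 library left out. The members called went from 0 to 1 (Txnip) with the replicate block by whole number, which changed no other member's call. The pathway genes went from 0 to 5 on variance-stabilized values and 2 with either replicate block (Arrdc4 and Syk). They became 1 with no trend, 1 with no minimum mean (Casp8) and 0 to 2 with 1 library left out. The 2636 genes between neuron sets became 1722 with no trend and 1921 to 2527 with 1 library left out. Apart from the libraries and settings whose construction shows the cause, the cause was not tested. Differences under about 0.24 on the log2 scale are within 1 standard error for Nlrc4.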
